A study of Homo sapiens with 40 samples.

Results

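HT is an established human line of diffuse large B-cell lymphoma (DLBCL), an aggressive tumour of mature B cells, and its labels give it wild type EZH2. Its response to GSK126 was read from 4 of the 40 arrays of the study, those whose titles name HT: replicates 1 and 2 with vehicle, 0.1% DMSO, and replicates 1 and 2 with 500 nM GSK126, all harvested at 72 h. The study treated 10 such lines in the same way, 7 with mutant and 3 with wild type EZH2. The labels give HT a growth IC50, the concentration that reduces growth by a fixed fraction, of 516 nM, so the dose used lies just below it. HT was set beside the other wild type lines, OCI-LY-19 (growth IC50 1019 nM) and Toledo (13786 nM), and beside SU-DHL-10 (448 nM) and SU-DHL-6 (582 nM), the lines labelled EZH2 mutant whose values lie nearest to it. The labels do not give the mutant alleles. A response in HT is that of 1 line, and its 2 arrays per treatment are titled biological replicates without a statement of how the cultures were separated, so that p-values measure the spread between such arrays.

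EZH2 is the catalytic subunit of Polycomb repressive complex 2 (PRC2), in which EED and SUZ12 are the core partners. The complex trimethylates lysine 27 of histone H3, a mark of silenced genes, many of them with CpG-rich promoters. Germinal centre B cells, from which many of these lymphomas derive, have high EZH2 and keep genes of cell cycle arrest and of plasma cell differentiation repressed. GSK126 competes with the methyl donor and blocks the enzyme, so the mark is lost as cells divide while the protein stays.

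Signals below are MAS5 signals on the linear scale, on which every array has a trimmed mean of 500, and are given for replicate 1 and then replicate 2. The 4 array medians lay between 62.4 and 69.1, and a gene near them is close to the noise of the array. Differences are log2 fold changes of GSK126 over DMSO ± the standard error of the limma fit over all 40 arrays, on log2(signal + 17.7), a scale that understates changes of dim genes. The DMSO pair correlated at 0.988 over the 15211 genes tested, the GSK126 pair at 0.989 and arrays of different treatment at 0.984 to 0.985, against 0.843 to 0.907 between HT and other lines. The ratio of 3' to 5' control signals, a sign of RNA integrity, was 1.13 to 1.18 for ACTB and 0.855 to 0.907 for GAPDH.

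The B cell markers bore out the label. CD79A, a chain of the B cell receptor, had signals of 8104 and 7874 with DMSO and 7968 and 8192 with GSK126, and MS4A1, which encodes CD20, 5262 and 5104 with DMSO and 5327 and 5198 with GSK126. Of the germinal centre markers, BCL6, MME and MYBL1 were bright on all 4 arrays and LMO2 was dim but above the array medians. The plasma cell markers PRDM1 and SDC1 were at or below the medians. JCHAIN, the third plasma cell marker, was bright, with signals of 3653 and 4127 with DMSO and 4982 and 4816 with GSK126. The summed signals of 8 T and NK cell markers were 193 to 252, and those of 6 myeloid markers 114 to 187. No myeloid marker, and among T and NK cell markers none but CD3E, exceeded the median on all 4 arrays. The sum over 5 stromal and epithelial markers was 471 to 499.9, of which COL1A1 gave 262 to 291, and over the erythroid and endothelial markers it was 196 to 330.1.

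GSK126 changed the level of 1417 of the 15211 genes tested in HT, or 9.32% (limma, Benjamini-Hochberg adjusted p under 0.05, two-sided), and rises outnumbered falls. The 960 genes that rose are 6.31% of those tested, and the 457 that fell are 3%. At an unadjusted p under 0.05 there were 3048 genes, 1919 with a rise and 1129 with a fall. Rises were also larger, with a median log2 fold change of 0.56 against -0.35 among falls and 0.02 over all genes tested. A change of at least 2-fold was reached by 157 rises and 16 falls, and 506 rises and 378 falls were below 1.5-fold. The calls thinned with every array left out: 613 rose and 189 fell when DMSO replicate 1 was dropped, 579 and 281 for DMSO replicate 2, 540 and 232 for GSK126 replicate 1, and 598 and 239 for GSK126 replicate 2. Of the genes called, 375 rises and 109 falls stayed called in all 4 of these fits. When the arrays were set to equal medians, 506 rose and 342 fell.

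Rises and falls came from different ranges of expression. The median DMSO signal was 594 among genes that rose, 2499 among those that fell and 383 over all genes tested. Of the 157 rises of at least 2-fold, 82 had neither DMSO array above its median, 62 had both above it, and 43 went from below the median on both DMSO arrays to above it on both GSK126 arrays. Over all genes tested 20.7% had neither DMSO array above its median, and among all rises 11.1%. A gene already near the noise has little room to fall, so the contrast in starting level is partly set by the scale. Where a risen gene had other measured probe sets, 863 of 972 moved in the same direction, and 252 of them were called. Among the fallen genes the count was 423 of 469, with 131 called. Other probe sets of a gene read the same RNA on the same arrays, and the share over all genes tested was not taken. In these bulk cultures fewer cells with a transcript and less of it per cell cannot be told apart.

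**Figure D1:**
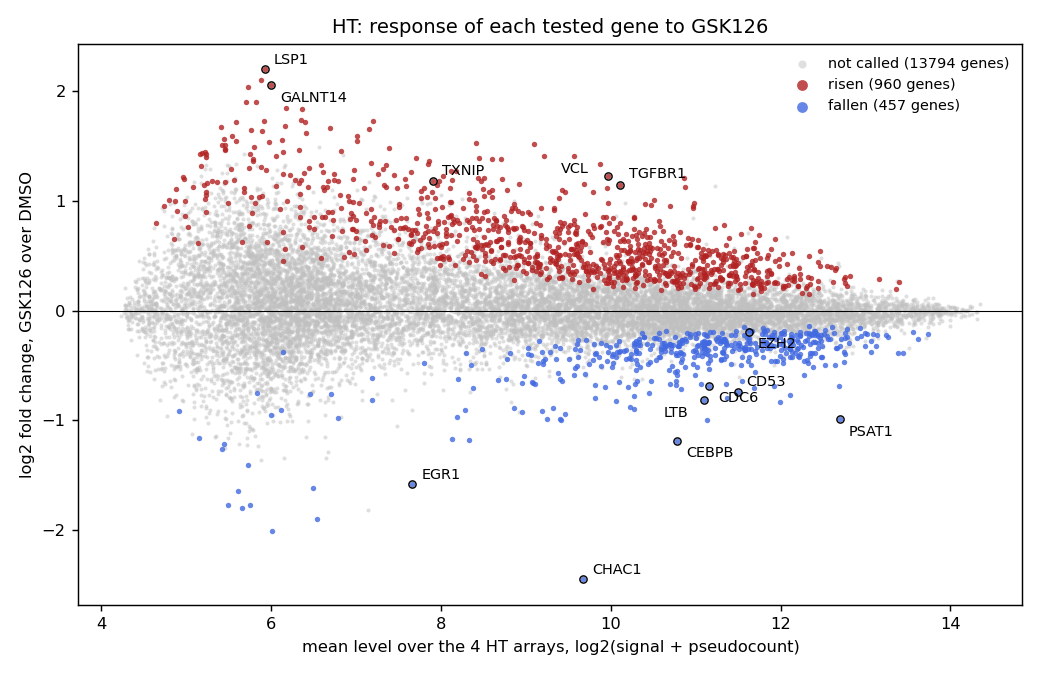
Each point is 1 of the 15211 genes tested, with its mean level over the 4 HT arrays, log2(signal + 17.7), on the x axis and its log2 fold change, GSK126 over DMSO, on the y axis; red marks the 960 genes that rose and blue the 457 that fell. The largest rises, such as LSP1 at 2.20, lie among dim genes, while many falls, such as PSAT1 at -0.99, lie among bright ones.

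The 12 largest rises were of genes below the array medians on both DMSO arrays, except SEC31B, which had 75.6 and 52.5 and exceeded the median on 1 of them. LSP1, which encodes an actin-binding protein of leukocytes, had signals of 7.75 and 14.2 with DMSO and 97.5 and 131 with GSK126 and rose by 2.20 ± 0.23 (adjusted p = 1.14e-07). GALNT14, an enzyme that starts O-glycans, had 9.87 and 18 with DMSO and 93.4 and 135 with GSK126 and rose by 2.05 ± 0.24 (adjusted p = 1e-06). Groups that do not overlap were a condition for naming both genes, and their DMSO signals were below the median of every HT array. TNNI1, the slow skeletal muscle troponin I, went from 8.59 and 8.33 to 72 and 110.3 (2.03 ± 0.25, adjusted p = 2.09e-06). LATS2, a kinase of the Hippo pathway, went from 13.2 and 6.03 to 90.4 and 77.4 (1.90 ± 0.23, adjusted p = 1.43e-06). None of these 4 genes lost its call when any 1 HT array was left out.

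The same order of size was seen for TMEM170B (1.90), ERC2 (1.85), which encodes a scaffold of the presynaptic active zone, ENHO (1.74), a secreted peptide, and SEC31B (1.73), a subunit of the COPII vesicle coat, all of which kept their calls with any 1 array left out. RND2, a small GTPase, rose by 1.83 and AKAP5, an anchor of protein kinase A, by 1.73, but without DMSO replicate 2 their adjusted p was 0.135 and 0.0674. LILRB3, a leukocyte inhibitory receptor, rose by 1.72 and lost its call without each of the arrays (adjusted p = 0.0696 to 0.157). PLXNA1, a semaphorin receptor, rose from 9.72 and 12.1 to 102 and 108 (2.10 ± 0.30, adjusted p = 1.71e-05), but its probe set that is brightest in HT gave 0.07 (adjusted p = 0.942). Which of these probe sets is nearer to the transcript's level was not tested.

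**Figure D2:**
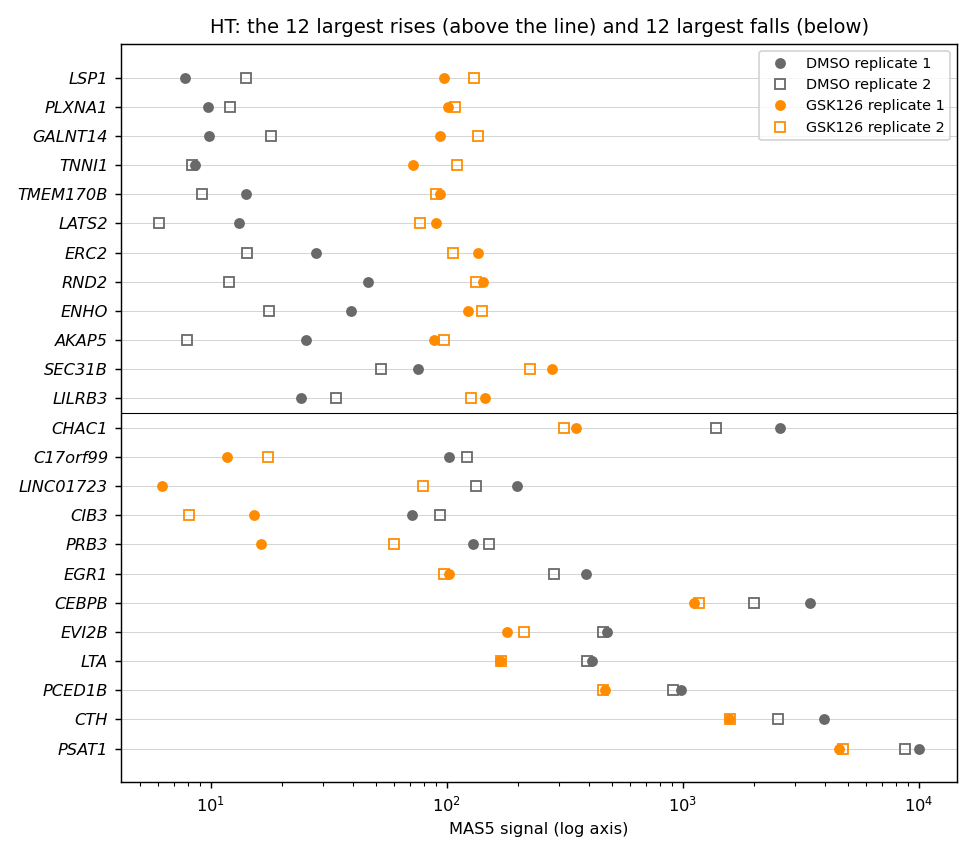
MAS5 signals (log axis) on the 4 HT arrays of the 12 largest rises and 12 largest falls under the naming rule; grey marks DMSO, orange GSK126, filled circles replicate 1 and open squares replicate 2. The rises start from DMSO signals below the array medians, as in TNNI1 (8.59 and 8.33), except for SEC31B on DMSO replicate 1, while CHAC1, CEBPB, CTH and PSAT1 fall from signals above 1000 and DMSO replicate 1 is above DMSO replicate 2 in each of these 4.

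Rises also occurred among well expressed genes, which were chosen for naming after their values were seen, as those with a signal above 500 on all 4 arrays. Of 6784 such genes 512 rose and 397 fell, where 6.31% of all 15211 genes tested rose and 3% fell. Most of the 457 falls in HT are thus among these genes. VCL, which encodes vinculin of focal adhesions, had signals of 628 and 646 with DMSO and 1506 and 1517 with GSK126, a 2.34-fold rise (1.22 ± 0.07, adjusted p = 5.26e-12). HGSNAT, a lysosomal acetyltransferase of heparan sulfate breakdown, had 605 and 541 with DMSO and 1514 and 1436 with GSK126, and its 2 other probe sets moved the same way (1.34 ± 0.09, adjusted p = 7.13e-11). PRKACB, a catalytic subunit of protein kinase A, had 526 and 548 with DMSO and 1209 and 1216 with GSK126 (1.15 ± 0.07, adjusted p = 1.62e-11). In all 3 the arrays of 1 treatment lay close together and the treatments were far apart. PRKCA, a conventional protein kinase C, rose by 0.98, SLC30A4, a zinc transporter, by 1.13, ANKH, which governs pyrophosphate export, by 1.01, and GALNT2, a relative of GALNT14, by 1.12. These calls held with any 1 array left out.

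Transcripts of the targeted complex differed by small amounts. EZH2 had signals of 3387 and 3335 with DMSO and 3009 and 2872 with GSK126 and fell by 0.19 on the log2 scale (SE 0.06, adjusted p = 0.0259), and the call ended with each array left out in turn (adjusted p = 0.0545 to 0.216). EED fell by 0.15, from 6495 and 6604 to 5864 and 5957, and KDM6B, a demethylase of the same histone mark, by 0.41. Both calls were likewise lost without any 1 array (adjusted p up to 0.203 and 0.229). SUZ12 had 7331 and 7766 with DMSO and 6838 and 6818 with GSK126 (-0.14 ± 0.07, adjusted p = 0.276), and EZH1, the paralogue of EZH2, 929.8 and 861 with DMSO and 863 and 898 with GSK126 (-0.02 ± 0.10, adjusted p = 0.95). All 8 members of the list of core subunits and demethylases had values below 0, with a median of -0.15, 3 called as fallen, 0 as risen (3 and 0 at an unadjusted p under 0.05) and 0 called with any 1 array left out. The shares over all genes tested were 3% fallen and 6.31% risen. Array measurements of the transcript say nothing on the enzyme's activity.

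Among accessory PRC2 cofactors, EPOP rose by 0.50, and AEBP2 and MTF2 fell by 0.31 and 0.24. None of the 3 calls held without every array: EPOP lost its call without DMSO replicate 2 (adjusted p = 0.0741), MTF2 without DMSO replicate 1 (0.0851) or GSK126 replicate 1 (0.134), and AEBP2 without DMSO replicate 1 (0.0971), DMSO replicate 2 (0.211) or GSK126 replicate 1 (0.32). PRC1 is a family of complexes, and only some of its forms read the methyl mark. Of 16 tested PRC1 subunits 4 rose and 1 fell, with a median of 0.09, where 6.31% of all genes tested rose and 3% fell. PCGF5, a RING-finger subunit, had signals of 1037 and 1024 with DMSO and 1598 and 1726 with GSK126 (0.68 ± 0.11, adjusted p = 8.51e-05). PHC2, a polyhomeotic subunit, had 1766 and 1605 with DMSO and 2444 and 2615 with GSK126 (0.58 ± 0.09, adjusted p = 2.74e-05), although its other probe set moved the opposite way. RYBP rose by 0.38. These 3 calls held with any 1 array left out, while that of SCMH1 (0.41) ended without DMSO replicate 2 (adjusted p = 0.136) or GSK126 replicate 2 (0.169). PCGF6 fell by 0.36.

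Developmental transcription factors are a class of gene that PRC2 holds silent in many cell types. Of 22 tested limma called 3 as risen and 0 as fallen, the same counts as at an unadjusted p under 0.05, with a median of 0.05, where 6.31% of all genes tested rose. PITX1, a homeodomain factor of hindlimb and pituitary, was already bright and had signals of 3087 and 3106 with DMSO and 4654 and 5103 with GSK126 (0.65 ± 0.11, adjusted p = 0.000262). Its groups did not overlap, as for 1414 of all 1417 genes called in HT. LHX2 rose by 1.45 from signals of 3.11 and 6.93 to 58.5 and 32.2, none above its array's median, and its call ended without DMSO replicate 1 (adjusted p = 0.0731) or GSK126 replicate 1 (0.132). DLX2 rose by 1.05 and lost its call without DMSO replicate 1 (adjusted p = 0.521), GSK126 replicate 1 (0.273) or GSK126 replicate 2 (0.106). Of 16 HOX genes 1 rose, HOXB7, with 1299 and 1277 with DMSO and 1745 and 1703 with GSK126 (0.42 ± 0.09, adjusted p = 0.00229), and the median was 0.19.

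The clearest falls were in genes of amino acid supply that the transcription factor ATF4 is known to switch on when amino acids run short. Of 24 tested genes in this list limma called 17 as fallen and 0 as risen (18 and 0 at an unadjusted p under 0.05), with a median log2 fold change of -0.48 against 0.02 over all genes. Over all genes tested 3% fell and 6.31% rose. This list, like the others, was chosen with earlier results of these data known, so its count is a description. CHAC1, an enzyme that degrades glutathione, had signals of 2585 and 1382 with DMSO and 352 and 313 with GSK126 (-2.45 ± 0.33, adjusted p = 6.21e-06). CEBPB, a bZIP transcription factor, had 3443 and 2011 with DMSO and 1119.8 and 1173 with GSK126 (-1.19 ± 0.14, adjusted p = 9.32e-07). PSAT1, of serine synthesis, had 10058 and 8702 with DMSO and 4599 and 4795 with GSK126 (-0.99 ± 0.09, adjusted p = 2.37e-08). The treatments did not overlap for any of the 17 fallen genes, as for 1414 of all 1417 genes called in HT.

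The falls covered transport, synthesis and the factor itself. The amino acid transporters SLC7A5 (-0.77), SLC3A2 (-0.70), which are the 2 chains of one carrier, SLC7A1 (-0.58) and SLC38A2 (-0.32) fell. ASNS, asparagine synthetase, fell by 0.68, the 1-carbon enzymes SHMT2 and MTHFD2 by 0.38 and 0.38, and ATF4 by 0.38, from 12956 and 11534 to 9560.3 and 9169. The related factors ATF5 (-0.78) and CEBPG (-0.51) and the pseudokinase TRIB3 (-0.67) were also lower. Outside the list and named after their values were seen, SLC1A5, a glutamine transporter, had 1693 and 1652 with DMSO and 754 and 1047 with GSK126 (-0.90 ± 0.13), AARS1, the alanyl-tRNA synthetase, 5958 and 4932 with DMSO and 3036 and 3020.1 with GSK126 (-0.84 ± 0.10), and CTH, of cysteine synthesis, 3951 and 2522 with DMSO and 1569 and 1579 with GSK126 (a 1.99-fold fall). PHGDH (-0.42, adjusted p = 0.345), DDIT3 (-0.45, adjusted p = 0.0854) and ATF3 (0.01, adjusted p = 0.993) did not pass the test.

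The size of these falls depended on 1 control array. In all 17 fallen genes DMSO replicate 1 was the highest of the 4 arrays, and the median ratio of DMSO replicate 1 to DMSO replicate 2 was 1.26 over them, against 0.997 over all genes tested and 1.04 between the GSK126 arrays. Without DMSO replicate 1 the count was 10 of 24 and the list's median -0.41; without DMSO replicate 2 it was 17 and -0.70. SESN2, a sensor of leucine and also a p53 target, had 831 and 455 with DMSO and 334 and 318 with GSK126 and lost its call without DMSO replicate 1 (adjusted p = 0.197), as did SLC7A11, the cystine transporter (adjusted p = 0.229, and 0.135 without GSK126 replicate 1). The calls of TRIB3 (adjusted p = 0.05), CEBPG (0.108), SHMT2 (0.182; 0.105 without GSK126 replicate 2) and SLC38A2 (0.0893) ended without DMSO replicate 1 too. CHAC1, CEBPB, PSAT1, CTH, SLC1A5 and AARS1 kept theirs with any 1 array left out, as did ASNS, ATF4, ATF5, MTHFD2, SLC7A1, SLC7A5 and SLC3A2. Why DMSO replicate 1 was high in these genes was not tested.

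**Figure D3:**
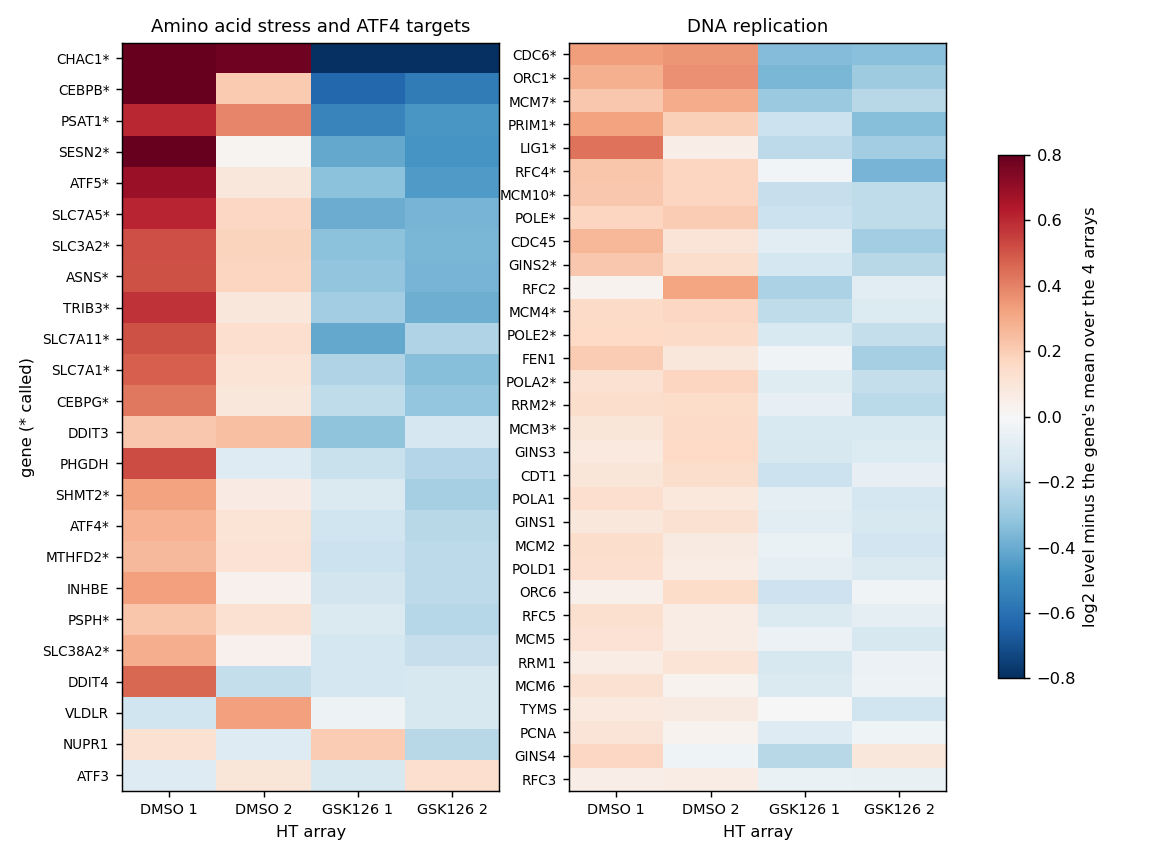
Log2 level of each tested gene of the ATF4 list (left) and of the DNA replication list (right) on each HT array, minus the gene's mean over the 4 arrays; red is higher, blue lower, and an asterisk marks a called gene. In the left panel DMSO replicate 1 is the highest array for each of the 17 called genes. In the right panel both DMSO arrays lie above both GSK126 arrays in 31 of 32 genes, against 22.2% of all genes tested.

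CHAC1 carries the largest fall and a sequence of the kind that ATF4 binds with C/EBP partners. The letters TGATGCA, most of that motif, were searched on both strands in the 250 bases before each gene's start in RefSeq (GRCh38.p14), a motif added to the search after the values were seen. They are present in 1.5% of tested genes with a promoter in the table, in 2.22% of all 27305 promoters and in 1 of the 14 fallen genes of the ATF4 list that have one. The window of CHAC1, on the plus strand of chr15:40953221-40953470, is printed 5′ to 3′ with the match, here on the other strand and 208 bases before the start, in capitals.
CHAC1: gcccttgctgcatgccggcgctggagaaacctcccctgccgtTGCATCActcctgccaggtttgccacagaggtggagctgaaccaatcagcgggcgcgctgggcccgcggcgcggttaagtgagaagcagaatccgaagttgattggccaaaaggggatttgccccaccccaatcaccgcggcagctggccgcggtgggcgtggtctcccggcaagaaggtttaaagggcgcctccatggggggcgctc
A match of letters is a description and not a binding site.

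Genes of DNA replication fell together by smaller amounts. Of 32 tested genes 14 fell and 0 rose by limma (27 and 0 at an unadjusted p under 0.05), all 32 values were below 0, and the median was -0.26. The shares over all genes tested were 3% fallen and 6.31% risen. Both GSK126 arrays lay below both DMSO arrays in 31 of the 32, whereas 22.2% of all genes tested did so. CDC6, the loader of the replicative helicase, had signals of 2859 and 2899 with DMSO and 1779 and 1792 with GSK126 (-0.68 ± 0.07, adjusted p = 2.69e-07). ORC1, a subunit of the origin recognition complex, had 638 and 676 with DMSO and 399 and 424 with GSK126 (-0.65 ± 0.10, adjusted p = 7.98e-05). MCM7, of the helicase itself, fell by 0.52 and PRIM1, the primase subunit, by 0.51. These 4 calls held with any 1 array left out. The list's count was 9 with either DMSO array left out, 11 with GSK126 replicate 1 left out and 7 with GSK126 replicate 2 left out. The median stayed between -0.28 and -0.24 in those fits. PCNA (-0.14) and TYMS (-0.15) did not pass the test.

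Mitotic genes had smaller differences, with 8 of 30 called as lower, 0 as higher (15 and 0 at an unadjusted p under 0.05) and a median of -0.16, and 24 of 30 had GSK126 arrays below both DMSO arrays. Over all genes tested 3% were called as lower, 6.31% as higher, and 22.2% had both GSK126 arrays below both DMSO arrays. AURKB, a mitotic kinase, had signals of 2663 and 2663 with DMSO and 2023 and 1873 with GSK126 (-0.45 ± 0.08, adjusted p = 0.000488), BUB1, of the spindle checkpoint, 2122 and 2107 with DMSO and 1482 and 1634 with GSK126 (-0.44 ± 0.08, adjusted p = 0.000267), and CCNA2, cyclin A2, 5971 and 5965 with DMSO and 4371 and 4593 with GSK126 (-0.41 ± 0.06, adjusted p = 1.11e-05). MKI67, the Ki-67 proliferation antigen, fell by 0.31, a call lost without GSK126 replicate 2 (adjusted p = 0.0772). The count was 4 without DMSO replicate 1, 5 without DMSO replicate 2, and 4 without either GSK126 array. CCNB1 (-0.00), TOP2A (-0.04) and BIRC5 (0.05) were not called.

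Among 6 cyclin-dependent kinase inhibitors tested, limma called 0 as risen, with 0 also at an unadjusted p under 0.05, and 1 as fallen. Over all genes tested 6.31% rose and 3% fell. CDKN2A had 2616 and 2404 with DMSO and 3453 and 3431 with GSK126 (0.45 ± 0.26, adjusted p = 0.371) and CDKN1A, near the array medians, 38.2 and 81.6 with DMSO and 58.8 and 91.6 with GSK126 (0.30 ± 0.27, adjusted p = 0.634). CDKN1B, which encodes p27, fell by 0.32, a call that ended without DMSO replicate 1 (adjusted p = 0.365), GSK126 replicate 1 (0.233) or GSK126 replicate 2 (0.0527). MYC had 3607 and 3354 with DMSO and 4054 and 3843 with GSK126 (0.18 ± 0.07, adjusted p = 0.133), and of 18 MYC targets and ribosome biogenesis genes 2 fell, CAD and GART, both of nucleotide synthesis, by 0.42 and 0.26. Of those 2 calls, 1 was left when either DMSO array was dropped, 2 when GSK126 replicate 1 was dropped and 0 when GSK126 replicate 2 was.

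ORC1 also served to look for the E2F motif, since E2F factors are known to drive replication genes at the start of S phase. The letters TTGGCGC of that motif, searched on both strands, are present in 3.85% of tested genes with a promoter in the table and 2.63% of all promoters. In the replication list they are in 4 of 29 promoters, and in 2 of the 13 of fallen genes, ORC1 and POLE, a catalytic subunit of DNA polymerase epsilon. The ORC1 window lies on the minus strand at chr1:52404424-52404673 and has its match, in capitals, on the gene's strand 22 bases before the start. POLE, at chr12:132687343-132687592 on the minus strand, has 2 matches, both on the other strand, 113 and 18 bases before its start.
ORC1: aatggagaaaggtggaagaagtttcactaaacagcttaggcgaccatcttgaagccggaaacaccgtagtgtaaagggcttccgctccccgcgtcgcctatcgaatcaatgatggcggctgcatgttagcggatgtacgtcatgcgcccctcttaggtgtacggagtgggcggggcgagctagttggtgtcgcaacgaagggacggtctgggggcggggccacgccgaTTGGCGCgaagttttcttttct
POLE: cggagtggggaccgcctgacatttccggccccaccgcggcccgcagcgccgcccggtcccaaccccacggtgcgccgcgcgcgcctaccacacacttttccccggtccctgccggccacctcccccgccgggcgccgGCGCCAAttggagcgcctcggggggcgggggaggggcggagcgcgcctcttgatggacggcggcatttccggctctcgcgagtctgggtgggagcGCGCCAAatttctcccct
Most fallen replication genes do not hold these letters in this window.

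Of 20 tested NF-kB targets and feedback genes limma called 5 as fallen, the tumour necrosis factor family cytokines LTA, LTB and TNF and the NF-kB subunits RELB and REL, and 0 as risen (6 and 2 at an unadjusted p under 0.05), with a median of -0.20. The shares over all genes tested were 3% fallen and 6.31% risen. LTB, lymphotoxin beta, had signals of 2837 and 2944 with DMSO and 1613 and 1649 with GSK126 (-0.82 ± 0.09, adjusted p = 2.6e-07), and LTA, lymphotoxin alpha, 412 and 392 with DMSO and 168 and 169 with GSK126 (-1.17 ± 0.21, adjusted p = 0.000389). Both kept their calls with any 1 array left out. TNF had 797 and 903 with DMSO and 463 and 439 with GSK126 (-0.89 ± 0.22, adjusted p = 0.00953), which was lost without DMSO replicate 2 (adjusted p = 0.1), GSK126 replicate 1 (0.0534) or GSK126 replicate 2 (0.0772). The subunit RELB fell by 0.62 and lost its call without DMSO replicate 1 (adjusted p = 0.0868) or GSK126 replicate 1 (0.0767). REL fell by 0.24 and lost its call without the same arrays (adjusted p = 0.306 and 0.25). Without GSK126 replicate 1 the list's count was 2. NFKB1 (0.02) and NFKBIA (-0.14), the inhibitor that NF-kB induces, did not pass the test. Of 32 chemokines, cytokines and receptors 3 fell, again LTA, TNF and LTB, and 1 rose, IL4R (0.62), whose call ended without any 1 array (adjusted p = 0.0689 to 0.167).

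EGR1, an immediate early transcription factor induced by receptor signalling, was among the largest falls, with signals of 389 and 286 with DMSO and 102 and 97.6 with GSK126 (-1.58 ± 0.19, adjusted p = 1.27e-06), and its 2 other probe sets moved the same way. EVI2B, a membrane protein of blood cells, had 476 and 458 with DMSO and 180.1 and 213 with GSK126 (-1.18 ± 0.11, adjusted p = 2.34e-08). PCED1B went from 985 and 905 to 469 and 458. Groups that do not overlap were a condition for naming these genes, and each call held with any 1 array left out. C17orf99, a secreted cytokine of B cells, fell by 2.01, from 102 and 122 to 11.8 and 17.4, also in every such fit. LINC01723 (-1.90), CIB3 (-1.77) and PRB3 (-1.62) fell to signals under the medians or close to them, and their calls ended without GSK126 replicate 1 (adjusted p = 0.354, 0.107 and 0.245) and without other arrays.

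Of 29 tested genes of B cell identity and receptor signalling 1 rose and 3 fell, with a median of 0.02, where 6.31% of all genes tested rose and 3% fell. FCRL3, an Fc receptor-like inhibitory receptor, had signals of 131 and 123 with DMSO and 343 and 353 with GSK126 (1.34 ± 0.10, adjusted p = 6.68e-10). CD53, a tetraspanin of leukocytes, had 3769 and 3650.5 with DMSO and 2281 and 2150.5 with GSK126 (-0.74 ± 0.06, adjusted p = 5.46e-09), and SYK, the kinase that relays the B cell receptor signal, 3239.9 and 3174 with DMSO and 2228 and 2349.5 with GSK126 (-0.48 ± 0.06, adjusted p = 7.25e-07). These 3 kept their calls with any 1 array left out, and the signals of each treatment agreed closely. LYN, another receptor kinase, fell by 0.21, which did not hold without any 1 array (adjusted p = 0.0612 to 0.147). PAX5, the factor that maintains B cell fate, had 8090.0 and 8714 with DMSO and 6469.8 and 6353 with GSK126 (-0.39 ± 0.13, adjusted p = 0.0615), and CD79A, MS4A1 and CD79B had values of 0.02, 0.02 and 0.08.

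Germinal centre and plasma cell genes moved in both directions. Of 19 germinal centre genes 4 rose and 1 fell, with a median of 0.08, where 6.31% of all genes tested rose and 3% fell. GCSAM, a marker of germinal centre B cells, had 989.8 and 888 with DMSO and 535 and 404 with GSK126 (-0.99 ± 0.16, adjusted p = 7.48e-05), a call kept with any 1 array left out. BCL6, the repressor that defines this stage, had 11132 and 10438 with DMSO and 12566 and 10590.0 with GSK126 (0.10 ± 0.08, adjusted p = 0.608). MAML3 (0.82) and LMO2 (0.69) rose, but without DMSO replicate 2 their adjusted p was 0.057 and 0.0865, and without GSK126 replicate 1 0.0878 and 0.14; SSBP2 (0.50) lost its call without the latter (0.0583), and 2 of its 5 other probe sets moved the opposite way. RGS16 rose by 0.41.

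Of 21 plasma cell genes 5 rose and 2 fell, with a median of 0.14, where 6.31% of all genes tested rose and 3% fell. TNFRSF17, the survival receptor BCMA of plasma cells, had signals of 887 and 912 with DMSO and 1678 and 1610.3 with GSK126 (0.86 ± 0.08, adjusted p = 1.28e-08), a call kept with any 1 array left out. The drivers of the plasma cell fate did not pass the test: PRDM1, which encodes BLIMP1, had 37.9 and 66.8 with DMSO and 46.2 and 61.9 with GSK126 (0.06 ± 0.36, adjusted p = 0.969) and IRF4 66.4 and 51 with DMSO and 96.7 and 56.5 with GSK126 (0.28 ± 0.18, adjusted p = 0.442), all near the array medians. XBP1, the secretory factor, fell by 0.51 and TENT5C and CREB3L2 rose by 1.26 and 0.82, and all 3 calls ended without GSK126 replicate 1 (adjusted p = 0.242, 0.228 and 0.289) and without at least 1 DMSO array. The list's count of rises was 3, 2, 1 and 3 when DMSO replicate 1, DMSO replicate 2, GSK126 replicate 1 and GSK126 replicate 2 were dropped in turn. Of 20 memory and activated B cell genes 1 rose, FCRL4 (1.14), which ended without any 1 array (adjusted p = 0.0612 to 0.141), and EGR1 fell.

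Genes of antigen presentation were called in both directions. In MHC class I, 4 of 17 genes rose and 1 fell, with a median of 0.03, where 6.31% of all genes tested rose and 3% fell. HLA-G had 1796 and 1140.5 with DMSO and 2734 and 2779 with GSK126 (0.94 ± 0.16, adjusted p = 0.000158), and HLA-F 1989.6 and 2032 with DMSO and 2671 and 2804 with GSK126 (0.44 ± 0.10, adjusted p = 0.00273), both kept with any 1 array left out, though 1 of 3 other probe sets of HLA-G moved the opposite way. The count of rises was 2 without each of the 4 arrays in turn. HLA genes are near-identical in parts of their sequence, so probes may share transcripts. HLA-C rose by 0.26 and the immunoproteasome subunit PSMB9 fell by 0.28, and neither call held without any 1 array (adjusted p up to 0.155 and 0.083). In MHC class II, 1 of 15 rose and 3 fell, with a median of -0.07. HLA-DMB, a chain of the peptide editor HLA-DM, had 2334 and 2270.5 with DMSO and 1292 and 1516 with GSK126 (-0.71 ± 0.15, adjusted p = 0.00243), which was lost without GSK126 replicate 1 (adjusted p = 0.0648). The counts of falls were 1, 2, 0 and 1 as DMSO replicate 1, DMSO replicate 2, GSK126 replicate 1 and GSK126 replicate 2 were dropped. The classical genes HLA-DRA (0.14) and HLA-DPB1 (0.09) and the coactivator CIITA (-0.27) did not pass the test.

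Interferon-stimulated genes had a median of 0.27 over 41 tested, with 7 risen and 2 fallen, where 6.31% of all genes tested rose and 3% fell. IFITM3, a membrane restriction factor, had 19.6 and 23.8 with DMSO and 75 and 80.6 with GSK126 (1.28 ± 0.27, adjusted p = 0.00197) and kept its call with any 1 array left out. IFIT1, which binds viral RNA, had 53.3 and 74.9 with DMSO and 167 and 192 with GSK126 (1.28 ± 0.29, adjusted p = 0.0038), a call lost without DMSO replicate 1 (adjusted p = 0.0782) or GSK126 replicate 2 (0.0519). HERC5 (1.14) and IFIT5 (0.78) also rose, and these calls were lost without GSK126 replicate 1 (adjusted p = 0.204 and 0.422) and without both DMSO arrays in turn. The list's count of rises was 4 without either DMSO array, 3 without GSK126 replicate 1 and 5 without GSK126 replicate 2. ISG15 (0.03), MX2 (-0.04) and IFIT3 (-0.04) did not pass the test, and TRIM22 and ISG20 fell, by 0.69 and 0.47, the latter not without DMSO replicate 1 (adjusted p = 0.0868) or GSK126 replicate 2 (0.0866). The list's median was 0.12 over the genes above the array median on both arrays of an HT treatment, 0.41 with a pseudocount of 1 and 0.42 without GSK126 replicate 2.

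Genes of TGF-beta and BMP signalling rose in 5 of 19 cases and fell in 0 by limma (10 and 1 at an unadjusted p under 0.05), with a median of 0.27. Over all genes tested 6.31% rose and 3% fell. The type I receptor TGFBR1 had signals of 695 and 755 with DMSO and 1631 and 1606 with GSK126 (1.14 ± 0.12, adjusted p = 1.02e-07), and its 2 other probe sets moved the same way. ID3 and ID1, inhibitors of bHLH factors that BMP signals induce, had 1395 and 1453 with DMSO and 2731 and 2799.8 with GSK126 (0.95 ± 0.10, adjusted p = 2.5e-07) and 1097 and 1262 with DMSO and 2376 and 2213 with GSK126 (0.95 ± 0.20, adjusted p = 0.00151). The GSK126 arrays of these 3 genes lay close together, well above DMSO, and the genes kept their calls with any 1 array left out. BMPR2, the type II receptor, rose by 0.92 and lost its call without DMSO replicate 2 (adjusted p = 0.181) or GSK126 replicate 2 (0.144). The counts without these 2 arrays were 3 and 3. SMAD7 (0.74, adjusted p = 0.0676), SMAD3 (0.61, adjusted p = 0.098) and ID2 (-0.50, adjusted p = 0.066) did not pass the test.

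TXNIP, an inhibitor of thioredoxin and of glucose uptake and a gene followed by the study, had signals of 132 and 151 with DMSO and 354 and 335 with GSK126 (1.18 ± 0.11, adjusted p = 3.09e-08), with both other probe sets in the same direction. TNFRSF21, a death receptor that the study also followed, had 3.78 and 8.11 with DMSO and 61.7 and 5.54 with GSK126 (0.87 ± 0.35, adjusted p = 0.136), so that 1 GSK126 array alone was raised. Over all genes tested 6.31% rose and 3% fell. Among 24 lysosomal genes limma called 4 as risen and 0 as fallen (6 and 1 at an unadjusted p under 0.05), with a median of 0.10. They include SCARB2, the receptor that sorts glucocerebrosidase, with 767 and 753 with DMSO and 1486 and 1285 with GSK126 (0.85 ± 0.16, adjusted p = 0.000677), LIPA, the acid lipase (0.51), and NPC2, a cholesterol carrier (0.34). Of 11 heat shock genes 2 rose, the small chaperone HSPB1 (1.30, from 48.6 and 29.3 to 108 and 132) and its partner BAG3 (0.68, from 467 and 534 to 862 and 758). These 6 rises held with any 1 array left out.

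Of 16 p53 targets 2 rose and 2 fell, the falls numbering 0 without DMSO replicate 1 and 1 without each other array. The shares over all genes tested were 6.31% risen and 3% fallen. SESN1, a stress-induced regulator of mTORC1, had 114 and 76.7 with DMSO and 228 and 222 with GSK126 (1.12 ± 0.19, adjusted p = 0.000213), and ZMAT3, an RNA-binding protein, rose by 0.65, while MDM2 (0.05) and BAX (-0.09) did not pass the test. Of 19 apoptosis regulators limma called 1 as fallen and 0 as risen (5 and 1 at an unadjusted p under 0.05); the fallen one was PMAIP1, which encodes the BH3-only protein NOXA, with 4164 and 2881 with DMSO and 1965 and 2009.8 with GSK126 (-0.80 ± 0.11, adjusted p = 8.82e-06). VEGFA, an angiogenic factor of the hypoxia list, had 887 and 495 with DMSO and 348 and 337 with GSK126 (-0.92 ± 0.15, adjusted p = 6.66e-05), and PFKP, a glycolytic enzyme, fell by 0.32, which made 2 of 27. In PMAIP1 and VEGFA DMSO replicate 1 was again the highest array. Among 19 cholesterol and fatty acid genes ACAT2 and FDPS fell, by 0.34 and 0.30. All 7 genes named here as changed kept their calls with any 1 array left out. None of the 13 T and NK cell, 7 myeloid, 9 stromal and epithelial or 6 erythroid and endothelial marker genes tested was called in either direction by limma, and at an unadjusted p under 0.05 there were 1 risen T and NK cell and 1 fallen stromal and epithelial gene.

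The remaining lists were read against the 6.31% of all genes tested that rose and the 3% that fell. Of 33 adhesion and cytoskeleton genes 3 rose and 1 fell, among them LMNA (0.74), which encodes lamin A and C, and ANXA2, an annexin (0.50), with a median of 0.14, and 1, 1, 0 and 2 rises as DMSO replicate 1, DMSO replicate 2, GSK126 replicate 1 and GSK126 replicate 2 were dropped. Of 19 antioxidant and glutathione genes 2 rose, TXNIP and MGST2 (0.37), and 2 fell, SLC7A11 and GCLM (-0.21), and GCLM and MGST2 lost their calls without GSK126 replicate 1 (adjusted p = 0.284 and 0.238) and both DMSO arrays in turn. Of 12 histone genes 1 rose, H2BC12 (0.27), a call that ended without any 1 array (adjusted p = 0.0591 to 0.199). With the arrays set to equal medians the rises numbered 2 of 16 in PRC1, 2 of 21 among plasma cell genes, 1 of 17 in MHC class I, 2 of 24 lysosomal and 0 of 16 HOX genes, and the falls 11 of 32 in DNA replication, 5 of 30 in mitosis and 17 of 24 in the ATF4 list. In that setting HOXB7 (adjusted p = 0.0736), RYBP (0.0551), HLA-F (0.0559) and NPC2 (0.0595) were not called.

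**Figure D4:**
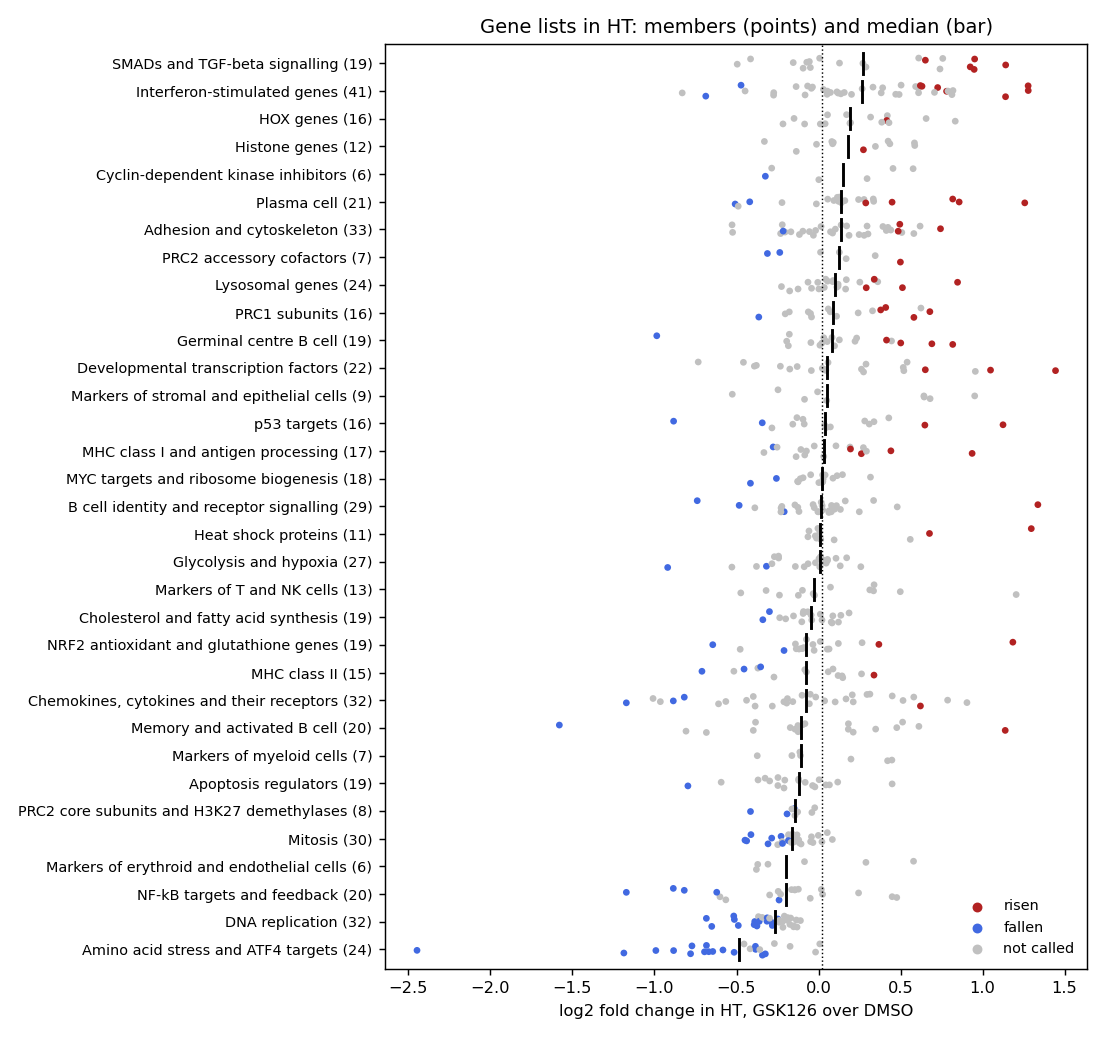
Log2 fold changes in HT of the tested members of each gene list other than the pair TXNIP and TNFRSF21 (points; red risen, blue fallen, grey not called), with the list's median as a black bar, the number tested in brackets and the median of all genes tested, 0.02, as a dotted line. The ATF4 list (median -0.48) and the DNA replication list (-0.26) lie lowest of the lists drawn, and the SMAD and TGF-beta list (0.27) highest.

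Promoter composition of called genes was compared with that of the genes tested, over the 250 bases before the start of each gene. At least 0.6 of the expected CpG content was found in 83.1% of risen and 81.4% of fallen genes with a promoter in the table, against 72.5% of all tested. Over tested genes above the array median on both arrays of an HT treatment the share was 79.9%. The GC box GGGCGG, the motif of SP1 family factors, was present in 72.8% of risen and 68.6% of fallen genes, against 66.5% of those expressed in HT by the same measure. Among rises of at least 2-fold 77.7% had CpG-rich promoters and 66.2% a GC box. These shares are a description, without a test.

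The response of HT was then compared with that of the other wild type lines, which have the same EZH2 label and higher growth IC50 values. The lines have their own DMSO arrays. In OCI-LY-19 299 genes rose (1.97%) and 67 fell (0.44%), and in Toledo 21 rose (0.138%) and 4 fell (0.0263%). Of the 960 rises in HT, 102 also rose in OCI-LY-19 (10.6% of those in HT and 34.1% of those in OCI-LY-19), and 3 in Toledo, while 2 fell in OCI-LY-19 and 1 in Toledo. Of the 457 falls, 9 and 0 were shared, while 8 rose in OCI-LY-19 and 0 in Toledo. The difference itself, HT minus the mean of OCI-LY-19 and Toledo, passed the test for 600 genes (3.94%), 388 higher in HT and 212 lower. That count was 340, 417, 351 and 389 when DMSO replicate 1, DMSO replicate 2, GSK126 replicate 1 and GSK126 replicate 2 of HT were dropped in turn, and 340 with the arrays at equal medians.

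SU-DHL-10 and SU-DHL-6, which carry mutant EZH2 and have growth IC50 values near that of HT, had more calls of their own. In SU-DHL-10 1673 genes rose (11%) and 1089 fell (7.16%), and in SU-DHL-6 1129 rose (7.42%) and 541 fell (3.56%). Of the rises in HT 388 also rose in SU-DHL-10 (40.4% of those in HT, 23.2% of those in SU-DHL-10) and 330 in SU-DHL-6 (34.4% and 29.2%), while 78 fell in SU-DHL-10 and 20 in SU-DHL-6. Of the falls 186 (40.7% and 17.1%) and 98 (21.4% and 18.1%) were shared, while 12 rose in SU-DHL-10 and 14 in SU-DHL-6. The difference, HT minus the mean of these 2 lines, passed the test for 776 genes (5.1%), 425 higher in HT and 351 lower. Leaving out 1 HT array lowered that count to between 470 (without DMSO replicate 1 or GSK126 replicate 1) and 524 (without DMSO replicate 2), with 500 genes without GSK126 replicate 2. SU-DHL-10 shares the label tag R7 with HT, while SU-DHL-6, OCI-LY-19 and Toledo carry other tags, and their meaning is not given. Growth IC50, genotype, tag and line cannot be told apart with so few lines.

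The genes described above had unlike values across these lines. CHAC1 had a log2 fold change of -2.14 in SU-DHL-10 and -0.65 in SU-DHL-6, against -0.28 in OCI-LY-19 and 0.02 in Toledo, and HT minus the wild type lines was -2.32 (adjusted p = 0.000545). EGR1 was at -1.60 in SU-DHL-10 but 0.47 in OCI-LY-19 and 0.34 in Toledo, a difference from the wild type lines of -1.98 (adjusted p = 2.89e-06). TXNIP had 0.96 and 1.14 in the mutant lines and 0.18 and -0.01 in OCI-LY-19 and Toledo. TGFBR1 had 1.27 in OCI-LY-19, close to the value of HT, and 0.30 in Toledo. FCRL3 was at -0.02, 0.26, -0.27 and -0.06 in OCI-LY-19, Toledo, SU-DHL-10 and SU-DHL-6, and CD53 at 0.08, 0.10, -0.24 and -0.00, where HT had 1.34 and -0.74.

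**Figure D5:**
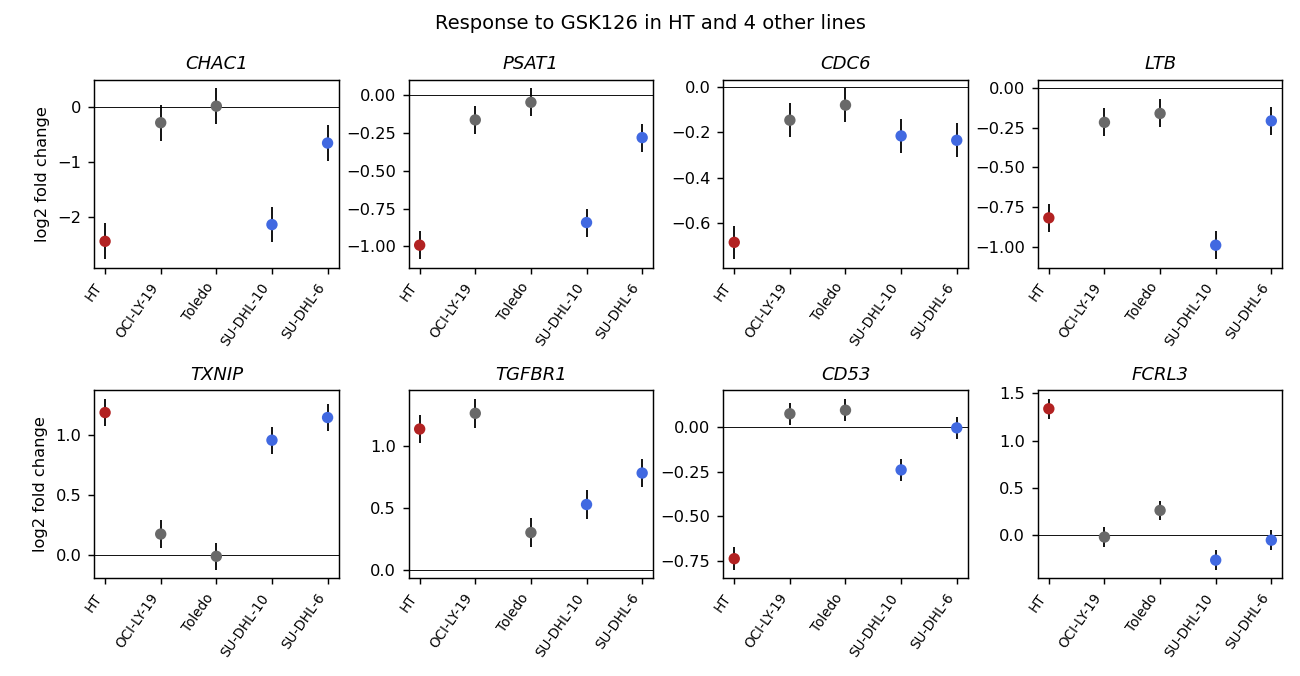
Log2 fold change, GSK126 over DMSO, of 8 genes in HT (red), the other wild type lines OCI-LY-19 and Toledo (grey) and the mutant lines SU-DHL-10 and SU-DHL-6 (blue); bars are the standard error of the fit, n = 2 arrays per treatment, and the y axis differs between panels. CHAC1 and PSAT1 are low in HT and SU-DHL-10, TXNIP is high in HT and both mutant lines, and FCRL3 stands high in HT at 1.34.

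Among the largest differences, some rested on HT and others on the line it was compared with. TBX21, a T-box factor of lymphocytes, rose in HT from 45.4 and 57.1 to 159 and 182 (1.45 ± 0.21, adjusted p = 1.92e-05), with -0.51 and -0.13 in SU-DHL-10 and SU-DHL-6, a difference of 1.77 (adjusted p = 4.23e-05). LMO7 rose in HT by 1.38 and had -1.45 in SU-DHL-10, a difference of 2.24 (adjusted p = 3.57e-05). LATS2 differed from both sets of lines, by 1.75 from the wild type lines (adjusted p = 0.000223) and 1.75 from the mutant lines (adjusted p = 0.000149). ZNF362, which rose in HT from 971 and 894 to 1469.8 and 1438, rose by 3.83 in SU-DHL-10, a difference of -1.52 (adjusted p = 1.73e-06), and its call in HT ended without DMSO replicate 2 (adjusted p = 0.0595).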

How the data were processed

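RNA of 40 cultures was hybridised to 1-colour Affymetrix arrays. MAS5 (version not given in the sources used here) produced the signals, per the submitters' processing notes, and the deposited values are log2 signals, each array scaled to a linear mean of 500 after trimming 2% at each end. MAS5 scatters widely for dim probe sets, and 2 arrays per group limit how precise any value is.

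Signals were returned to the linear scale and tested as log2(signal + 17.7), the pseudocount being the median over arrays of the 25th percentile. Each gene took its single-symbol probe set of highest mean (19775 genes; 41091 of 54675 probe sets, 1801 had several symbols, 11721 none and 62 were controls), and 15211 genes above the array median on at least 2 arrays were tested. Symbols came from the platform annotation, which can be old; 41037 gene IDs matched RefSeq (GRCh38.p14). All 40 arrays entered 1 fit of limma 3.58.1 (R 4.3.3) with 20 group means and an intensity trend (20 residual and 6.98 prior degrees of freedom; two-sided; Benjamini-Hochberg; called at adjusted p under 0.05). The fit was tested on simulated data. Promoter sequences are RefSeq's, and 1194 called genes matched. The 4 arrays of HT were grouped by their labels, and all 4 carry the label tag R7, whose meaning is not given.

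Named were the 12 largest rises and falls with groups that do not overlap, above the array median on both arrays of the higher group, the 4 largest calls of each list, some genes of PRC2 and B cells whatever their call, and the 6 largest differences each way between HT and either set of lines. The members and lists were chosen with earlier results of these data known. Alternatives varied the pseudocount, the filter, the scaling, the probe set, the arrays fitted, a replicate block, and left out each HT array in turn.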

Additional observations from a re-analysis of the deposited data

Results flagged for a closer look

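The response of HT differed from the mean of OCI-LY-19 and Toledo in 600 genes and from the mean of SU-DHL-10 and SU-DHL-6 in 776 genes, by limma's test of the difference itself (Benjamini-Hochberg adjusted p under 0.05). The values below are differences between log2 fold changes, HT minus the mean of the other lines, for the genes with the largest differences among those called in HT. They were picked for their size and are given as a description.

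Against the other wild type lines, HT was higher by 2.40 in RND2 (adjusted p = 0.00429), 2.11 in GALNT14 (3.5e-05), 2.07 in TNNI1 (7.72e-05), 2.01 in LSP1 (2.9e-05), 1.82 in PLXNA1 (0.00298) and 1.75 in LATS2 (0.000223). RND2 had -1.43 in OCI-LY-19, and its difference lost the call without DMSO replicate 2 of HT (1.84, adjusted p = 0.0746). HT was lower, with differences of -2.32 in CHAC1 (adjusted p = 0.000545), -2.31 in CIB3 (0.0475), -2.10 in LINC01723 (0.0288), -2.08 in IL1RAPL2 (0.0164), -1.99 in C17orf99 (0.00163) and -1.98 in EGR1 (2.89e-06). CHAC1 and EGR1 are the ones above 250 in signal with DMSO on both arrays. C17orf99, IL1RAPL2, CIB3 and LINC01723 were below 100 on both GSK126 arrays, and CIB3 also with DMSO (71.2 and 93.5). IL1RAPL2, CIB3 and LINC01723 are less sure: with single HT arrays left out the calls of the difference were lost without any 1 array in CIB3 (adjusted p = 0.109 to 0.191) and without DMSO replicate 1 or GSK126 replicate 1 in LINC01723 (0.18 and 0.401) and IL1RAPL2 (0.194 and 0.122).

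Against SU-DHL-10 and SU-DHL-6, HT was higher by 2.24 in LMO7 (adjusted p = 3.57e-05), 1.82 in FUT4 (0.00179), 1.79 in CIMAP3 (0.0329), 1.77 in TBX21 (4.23e-05), 1.75 in LATS2 (0.000149) and 1.67 in TNNI1 (0.000747). FUT4, a fucosyltransferase, had 269 and 296 with DMSO and 626 and 623 with GSK126 in HT and values of -0.50 and -0.94 in SU-DHL-10 and SU-DHL-6, and its other probe set moved the opposite way in HT. HT was lower, with differences of -1.79 in PRB3 (adjusted p = 0.0254), -1.73 in C17orf99 (0.00505), -1.72 in LINC01896 (0.0328), -1.55 in ACSM3 (0.037), -1.52 in ZNF362 (1.73e-06) and -1.51 in SH3TC1 (7.78e-05). ACSM3, LINC01896 and SH3TC1 had signals of at most 68.7 on every HT array, and the differences of LINC01896 (adjusted p = 0.0818 to 0.138) and ACSM3 (0.0894 to 0.15) lost their calls without each HT array in turn. PRB3 lost its call without DMSO replicate 1 (adjusted p = 0.0685), DMSO replicate 2 (0.112) or GSK126 replicate 1 (0.284), and CIMAP3 without DMSO replicate 2 (0.198), GSK126 replicate 1 (0.145) or GSK126 replicate 2 (0.0803).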

How the results depend on the processing

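The number of genes called in HT was 772 to 860 with 1 HT array left out (risen 540 to 613, fallen 189 to 281), and the differences from the other wild type lines numbered 340 to 417 and from SU-DHL-10 and SU-DHL-6 470 to 524. With the arrays at equal medians 848 genes were called in HT, 506 of them risen, and 340 differed from the other wild type lines; the median of all genes was then -0.04, against 0.02. The other settings kept these counts within 1.5 times, but not always the same genes. A fit of the 4 HT arrays alone called 1135 genes, of which 897 were among the 1417 of the main fit. Of 139 named genes 30 lost their call there and 1 gained one. With the probe set brightest in HT, 4 values called in the main fit changed sign: the difference of PLXNA1 from the wild type lines was -0.10 (adjusted p = 0.945), ACSM3 in HT 0.24 (0.824), SH3TC1 in HT 0.14 (0.927) and its difference from the mutant lines 0.23 (0.910). The value in HT of 1 other named gene, called in neither fit, changed sign too. Replicate numbers did not pair the arrays: deviations of same-numbered HT arrays from their group means correlated at -0.01, and a fit with the replicate number as a block called 843 risen and 371 fallen genes, 462 and 650 genes in the differences. Signal over background limits the dim genes, including most of the 12 largest rises.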
